A study of Mus musculus with 9 samples.

Results

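The 10 genes described here encode C-type lectin receptors of myeloid cells: Clec4e, Clec4d, Clec4n, Clec7a, Mgl2, Clec10a, Clec4a1, Clec4a2, Clec4a3 and Clec12a. They were chosen by name as myeloid members of that family, with earlier results of these data known. All 10 were found among the 55401 mouse genes of the count table and passed the filter on low counts, which left 13501 genes. Poly(A) RNA was sequenced from primary peritoneal macrophages of mice, drawn into the peritoneal cavity with thioglycollate, an irritant, and collected after brief adherence in medium with 10% fetal bovine serum. There were 3 libraries of each of 3 genotypes: Stat6 S807A/S807A (SA), Stat6 S807E/S807E (SE) and wild type (WT). STAT6 carries signals from the receptors for interleukin-4 and interleukin-13 to the nucleus. Alanine at Ser807 cannot be phosphorylated there, and glutamate carries a negative charge that is often used to stand in for a phosphate. The labels name no cytokine added to any group. Neither the age and sex of the mice nor whether each library came from its own mouse is stated in the labels. The p-values therefore reflect the spread between libraries, which may be technical.

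C-type lectin receptors sit on the surface of macrophages and dendritic cells and bind sugars and lipids of microbes and of dying cells. Clec4e (Mincle), Clec4d (MCL) and Clec4n (Dectin-2) pair with the Fc receptor gamma chain, encoded by Fcer1g, and Clec7a (Dectin-1) carries a signalling motif of its own. Their signals run through the kinase SYK and the adaptor CARD9 to NF-kB. Clec4a2 (DCIR) and Clec12a (MICL) carry inhibitory motifs that recruit phosphatases. Mgl2 and Clec10a encode galactose-type lectins that are widely used as markers of macrophages activated by interleukin-4.

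Library totals ran from 17286617 to 24618608 counts, and expression is given as CPM (counts scaled to the library total with TMM factors). All 8 macrophage markers were detected, with Lyz2 at 10070 ± 246 CPM in SA, 10590 ± 982 CPM in SE and 11580 ± 1950 CPM in WT, and Csf1r at 4996 ± 133, 5035 ± 326 and 5325 ± 363 CPM in the same order (SD, n = 3 each). Within genotypes the libraries that differed most were WT1 and WT2 (chi-square of their counts per degree of freedom 16.4) and SE2 and SE3 (10.1), against 3.69 to 8.82 for the other pairs. The edited gene, Stat6, averaged 198 ± 2.92 CPM in SA, 296 ± 14.6 CPM in SE and 195 ± 7.53 CPM in WT. Total RNA of a cell preparation cannot tell fewer cells that express a gene from less of its RNA per cell, which holds for all values below.

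Of the 10 receptor genes, 5 rose and 1 fell in SA relative to WT, 1 rose and 3 fell in SE relative to WT, and 0 rose and 5 fell in SE relative to SA. A gene was called at an adjusted p under 0.05 (edgeR quasi-likelihood test, adjusted over all tested genes). Across all tested genes the test called 4.07% in SA vs WT (1.97% higher, 2.1% lower), 5.04% in SE vs WT (2.35% higher, 2.69% lower) and 10.2% in SE vs SA (4.77% higher, 5.42% lower). The median log2 change of the receptor genes was 0.37, -0.01 and -0.32 in these comparisons, against medians of 0.001, -0.003 and -0.003 over all tested genes. The 3 libraries of each genotype did not overlap for 8 of 10 receptor genes in SA vs WT (19.3% of all tested genes), for 5 in SE vs WT (20.5%) and for 7 in SE vs SA (28.3%). For the 0 that rose in SE vs SA, the count was also 0 at an unadjusted p under 0.05 and with DESeq2. In all, 7 of the receptor genes were called in at least 1 comparison and 3 in none: Clec7a, Clec10a and Clec4a2. The comparisons of SA and of SE with WT share the WT libraries. Because the 10 genes were chosen with earlier results known, their shares beside those of all genes are a description, not a test.

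**Figure D1:**
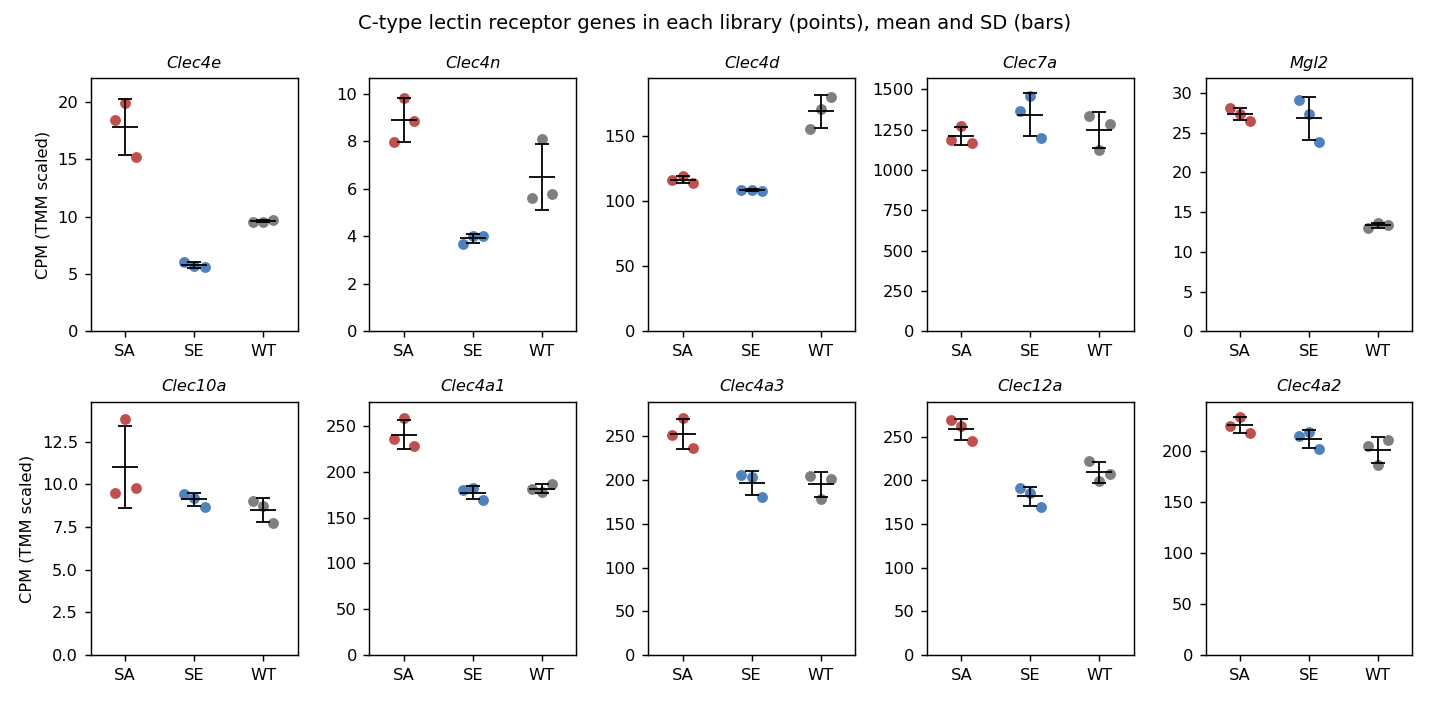
Level of each of the 10 receptor genes in every library, in TMM-scaled CPM on axes that start at 0. Points are libraries, bars are the mean and SD of 3 libraries, with SA, SE and WT from left to right. Clec4e stood at 15.2 to 19.9 CPM in SA, 5.60 to 6.03 CPM in SE and 9.55 to 9.73 CPM in WT, and Mgl2 stood at 26.5 to 28.1 CPM in SA, 23.8 to 29.1 CPM in SE and 13.0 to 13.6 CPM in WT.

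Clec4e, Clec4d and Clec4n lie side by side on chromosome 6, and each genotype gave the trio a different pattern. Clec4e, whose product Mincle binds the mycobacterial cord factor and a protein released by dead cells, had 18.4, 19.9 and 15.2 CPM in the SA libraries, 6.03, 5.70 and 5.60 CPM in the SE libraries and 9.55, 9.57 and 9.73 CPM in the WT libraries (98 to 418 counts per library). The 3 genotypes did not overlap: SA was high, WT in between and SE low. Clec4e was 1.86-fold higher in SA than in WT (log2 change 0.89 ± 0.11, standard error, adjusted p = 4.63e-05, edgeR) and 1.66-fold lower in SE than in WT (-0.73 ± 0.12, adjusted p = 0.00151, edgeR). Between the mutants it was 3.08-fold lower in SE than in SA (adjusted p = 1.05e-07, edgeR), the largest change of any receptor gene here in any of the 3 comparisons.

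Clec4d, whose product MCL recognises the same glycolipid and associates with Mincle, fell in both mutants. It had 116.6, 119.1 and 114.1 CPM in SA, 108.8, 108.6 and 107.5 CPM in SE and 155.5, 171.1 and 180.1 CPM in WT. Both mutants lay below every WT library, and SE just below SA. The fall was 1.45-fold in SA (-0.53 ± 0.06, adjusted p = 3.26e-05, edgeR) and 1.56-fold in SE (-0.64 ± 0.06, adjusted p = 6.69e-06, edgeR). SE and SA differed by -0.11 on the log2 scale, with a 95% interval of -0.24 to 0.02 (adjusted p = 0.328, edgeR).

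Clec4n, whose product Dectin-2 binds fungal mannans, had 7.98, 9.83 and 8.84 CPM in SA, 3.677, 4.015 and 4.032 CPM in SE and 5.59, 8.10 and 5.77 CPM in WT. WT2 stood above the other WT libraries and overlapped SA, whereas every SE library lay below every other library. Clec4n was 1.64-fold lower in SE than in WT (-0.71 ± 0.16, adjusted p = 0.0133, edgeR) and 2.27-fold lower in SE than in SA (adjusted p = 8.71e-05, edgeR). The call in SE vs WT ended without SE1 (adjusted p = 0.0766, edgeR). In SA vs WT the change of 0.47 ± 0.14 was not called (adjusted p = 0.0871, edgeR), and it was 0.64 and called without WT2 (adjusted p = 0.00786, edgeR).

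Clec4d and Clec4e are separated by 6.52 kb and are transcribed from opposite strands. In SA they moved in opposite directions, and in SE both fell. The number of Clec4e counts per Clec4d count in the same library, which needs no scaling between libraries, was 0.158, 0.167 and 0.133 in SA, 0.0554, 0.0525 and 0.0521 in SE and 0.0614, 0.0559 and 0.0540 in WT. SA stood apart from both other genotypes, and SE overlapped WT. The ratio was 2.67-fold higher in SA than in WT (exact permutation test, 2-sided, p = 0.1, the smallest that 3 against 3 allows, adjusted p = 0.15 over 6 such comparisons) and 1.07-fold lower in SE than in WT (exact permutation p = 0.2, adjusted p = 0.2). Between the mutants it was 2.85-fold lower in SE than in SA (exact permutation p = 0.1, adjusted p = 0.15). This comparison was added after the data were seen, so the ratio restates the counts of both genes and adds no separate evidence.

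**Figure D2:**
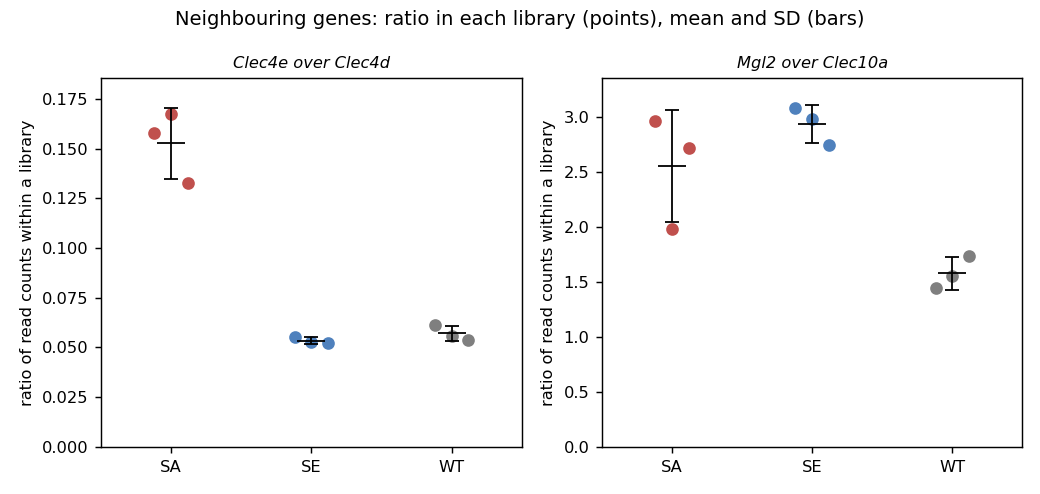
Ratio of read counts of neighbouring genes within each library (vertical axes, no unit, from 0), for Clec4e over Clec4d on the left and Mgl2 over Clec10a on the right. Points are libraries and bars the mean and SD of 3 libraries. SA stands above SE and WT for Clec4e over Clec4d, and both mutants stand above WT for Mgl2 over Clec10a.

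The trio closes the Clec4 cluster, a run of 9 protein-coding genes within 368.0 kb of mm10 chromosome 6 that opens with Clec4a1 at 122921848 and ends with Clec4e at 123289870. In order along the chromosome, its receptor genes described here are Clec4a1 (ENSMUSG00000049037, 122921848 to 122934619, plus strand), Clec4a3 (ENSMUSG00000043832, 122952515 to 122969875, plus strand), Clec4a2 (ENSMUSG00000030148, 123106428 to 123143999, plus strand), Clec4n (ENSMUSG00000023349, 123229843 to 123247021, plus strand), Clec4d (ENSMUSG00000030144, 123262111 to 123275265, plus strand) and Clec4e (ENSMUSG00000030142, 123281789 to 123289870, minus strand). Of the 9 genes 8 were tested. Gm44132 lies within Clec4a2, with no exon in common. In SE the called genes of the cluster were Clec4n, Clec4d and Clec4e, the 3 at its distal end, and all 3 fell. In SA the called genes were Clec4a1 and Clec4a3 at the proximal end, which rose, and Clec4d and Clec4e. Clec4b1, which lies between them, averaged 13.7 ± 0.331 CPM in SA, 13.1 ± 0.112 CPM in SE and 13.9 ± 1.02 CPM in WT and was not called (edgeR, adjusted p = 0.963 for SA vs WT and 0.694 for SE vs WT). Clec4a4 had 10 to 36 counts per library and was not called, and Clec4b2 had 0 or 1 counts and was not tested.

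**Figure D3:**
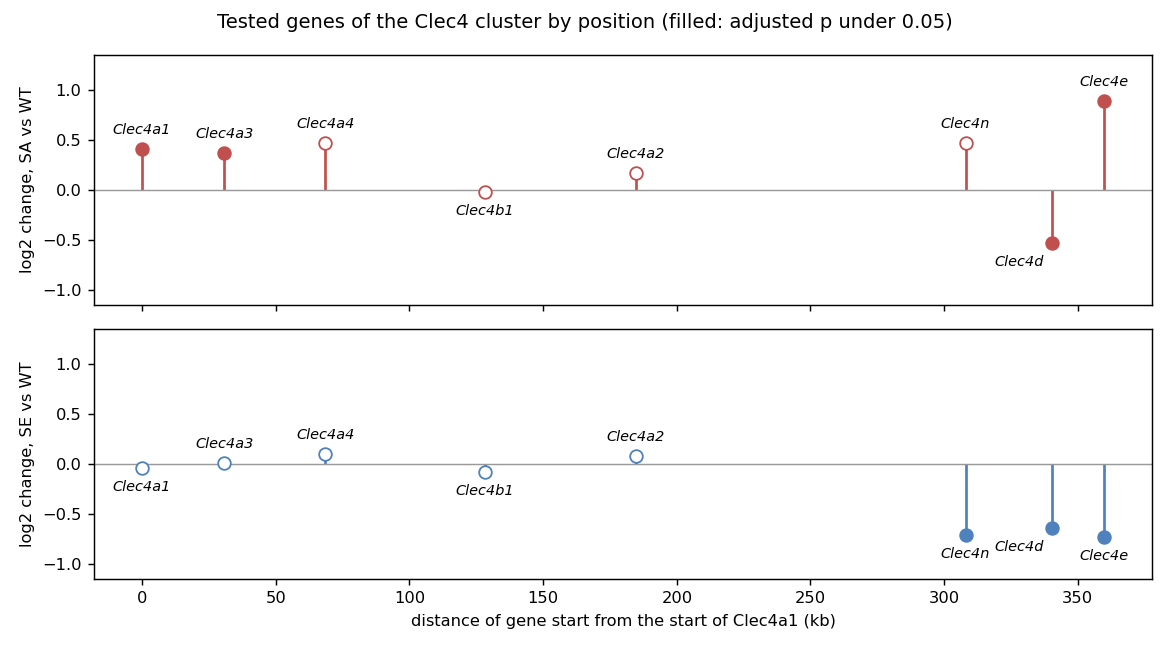
Log2 change of the 8 tested genes of the Clec4 cluster (vertical axes) against the distance of each gene from the first one in kb (horizontal axis), for SA vs WT above and SE vs WT below. Filled points passed the test. In SE the 3 genes at the right end lay between -0.64 and -0.73, and in SA Clec4d (-0.53) stood between Clec4n (0.47) and Clec4e (0.89).

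RefSeq promoter windows (GRCm38.p6, from 250 bases before to 50 after the start of transcription) were matched by symbol for 8 of the 10 genes, and not for Clec4n and Clec10a. They were searched for the palindromes that STAT proteins bind, TTC and GAA held apart by bases of any kind: 4 bases, the spacing that STAT6 prefers, or 3 bases, the spacing common to other STATs. A match on 1 strand is a match on the other. The longer spacing occurred in 2 of the 8 genes, at -131 from the start of Clec7a (-125 in its second window) and at -244 of Clec4a1, and in 6.95% of all 32851 promoter windows. The shorter spacing occurred in 1 of the 8, at -42 of Clec4a2, and in 8.3% of all windows. The counts over the 8 are per gene, those over all promoters per window. The window of Clec4a2 (123122440 to 123122739) lies inside the gene span given above, so -42 refers to a RefSeq start within it. That of Clec12a (129349994 to 129350293) likewise lies inside its gene span given below. For 1 of the windows of Clec4a3 no transcript start was matched. A match is a description of these letters, not a bound site. The 250 bases before the start are shown for the matched genes that changed most, Clec4e and Mgl2, for the neighbour of Clec4e that moved the other way in SA, Clec4d, and for both genes that hold the longer spacing, whose match is printed in capitals. They are written 5′ to 3′ on the strand of the gene. Their positions are chr6:123289872-123290121 (minus strand) for Clec4e, chr6:123261857-123262106 (plus strand) for Clec4d, chr11:70130107-70130356 (plus strand) for Mgl2, chr6:122921598-122921847 (plus strand) for Clec4a1 and chr6:129472780-129473029 (minus strand) for Clec7a.
Clec4e: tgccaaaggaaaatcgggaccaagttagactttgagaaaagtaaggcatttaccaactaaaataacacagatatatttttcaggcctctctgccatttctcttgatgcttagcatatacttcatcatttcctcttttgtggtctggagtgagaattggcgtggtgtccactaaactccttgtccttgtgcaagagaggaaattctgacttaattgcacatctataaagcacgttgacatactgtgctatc
Clec4d: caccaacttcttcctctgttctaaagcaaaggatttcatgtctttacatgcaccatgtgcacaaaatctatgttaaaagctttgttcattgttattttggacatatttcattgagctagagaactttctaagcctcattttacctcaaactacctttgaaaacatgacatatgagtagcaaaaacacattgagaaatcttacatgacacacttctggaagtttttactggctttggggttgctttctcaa
Mgl2: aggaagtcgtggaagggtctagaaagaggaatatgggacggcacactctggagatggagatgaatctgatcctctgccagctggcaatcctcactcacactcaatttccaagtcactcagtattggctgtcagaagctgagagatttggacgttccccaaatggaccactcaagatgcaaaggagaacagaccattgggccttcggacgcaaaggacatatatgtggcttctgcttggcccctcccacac
Clec4a1: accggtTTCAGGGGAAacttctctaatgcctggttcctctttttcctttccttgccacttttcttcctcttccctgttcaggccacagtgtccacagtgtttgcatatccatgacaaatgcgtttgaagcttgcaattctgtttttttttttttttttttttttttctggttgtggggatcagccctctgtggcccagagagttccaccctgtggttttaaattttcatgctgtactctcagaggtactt
Clec7a: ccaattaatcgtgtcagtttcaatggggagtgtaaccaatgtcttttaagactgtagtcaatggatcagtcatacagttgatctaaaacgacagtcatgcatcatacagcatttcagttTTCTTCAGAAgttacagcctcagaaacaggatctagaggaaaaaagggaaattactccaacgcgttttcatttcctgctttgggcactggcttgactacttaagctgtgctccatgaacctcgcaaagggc

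Clec7a, whose product Dectin-1 binds fungal beta-glucan, was the most abundant of the 10 per kb of exon and was called in none of the comparisons. It had 1184, 1275 and 1171 CPM in SA, 1369, 1461 and 1197 CPM in SE and 1334, 1124 and 1286 CPM in WT, and the 3 genotypes overlapped. The log2 difference was -0.04 in SA vs WT (95% interval -0.21 to 0.12, adjusted p = 0.894, edgeR), 0.11 in SE vs WT (-0.06 to 0.27, adjusted p = 0.516, edgeR) and 0.15 in SE vs SA (-0.01 to 0.31, adjusted p = 0.263, edgeR). With WT2 and SE3 both left out, Clec7a was called higher in SE than in SA (log2 change 0.22, adjusted p = 0.00269, edgeR). Clec7a and Clec12a lie in another lectin run of the same chromosome: Clec12a (ENSMUSG00000053063, 129342691 to 129365303, plus strand) and Clec7a (ENSMUSG00000079293, 129461591 to 129472779, minus strand). GENCODE M21 lists Clec7a as a polymorphic pseudogene, a label for genes that are intact in some mouse strains only.

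The galactose-type lectins Mgl2 and Clec10a are neighbours on chromosome 11, 18.6 kb apart: Mgl2 (ENSMUSG00000040950, 70130329 to 70137550, plus strand) and Clec10a (ENSMUSG00000000318, 70156197 to 70170834, plus strand). Mgl2, whose product prefers N-acetylgalactosamine, had 28.1, 27.4 and 26.5 CPM in SA, 29.1, 27.4 and 23.8 CPM in SE and 13.0, 13.6 and 13.4 CPM in WT. Both mutants lay above every WT library and overlapped each other. The rise was 2.05-fold in SA (1.04 ± 0.09, adjusted p = 1.18e-06, edgeR) and 2.01-fold in SE (1.01 ± 0.09, adjusted p = 1.98e-06, edgeR), and SE minus SA was -0.03 on the log2 scale, with a 95% interval of -0.20 to 0.14. Mgl2 was the 1 receptor gene called higher in SE vs WT.

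Clec10a, whose product MGL1 prefers Lewis-type galactose sugars, had 9.48, 13.8 and 9.76 CPM in SA, 9.46, 9.19 and 8.69 CPM in SE and 9.03, 8.75 and 7.73 CPM in WT. SA2 stood far above the other SA libraries, which lay just above WT. The change of 0.37 ± 0.13 in SA vs WT was not called (adjusted p = 0.179, edgeR) and was 0.18 without SA2 (adjusted p = 0.668, edgeR), nor was that of 0.10 ± 0.14 in SE vs WT (adjusted p = 0.766, edgeR), whose 95% interval was -0.19 to 0.39. Mgl2 counts per Clec10a count were 2.97, 1.99 and 2.72 in SA, 3.08, 2.98 and 2.74 in SE and 1.44, 1.56 and 1.74 in WT, so that neither mutant overlapped WT. The ratio was 1.6-fold higher in SA and 1.86-fold higher in SE than in WT (exact permutation p = 0.1 each, the smallest possible, adjusted p = 0.15 over the same 6 comparisons). It too was compared after the data were seen and restates the same counts. The pair shares sequence: 13.1% of all 50-base stretches of Mgl2 transcripts and 9.02% of those of Clec10a occur in other genes, and 270 of them in both genes of the pair. How reads from such stretches were assigned is not given in the sources used here.

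Clec4a1, Clec4a3 and Clec12a rose in SA and were lower in SE than in SA. Clec4a1 and Clec4a3 encode DCIR4 and DCIR3, close relatives of the inhibitory receptor DCIR. Clec4a1 had 235.5, 258.5 and 228.2 CPM in SA, 179.8, 182.8 and 169.3 CPM in SE and 181.2, 177.6 and 186.5 CPM in WT. SA lay above the other genotypes, which overlapped. It was 1.32-fold higher in SA than in WT (0.41 ± 0.06, adjusted p = 0.000459, edgeR), and its change in SE was -0.04 with a 95% interval of -0.16 to 0.09. Clec4a3 had 252.1, 270.8 and 236.2 CPM in SA, 205.7, 203.5 and 180.6 CPM in SE and 205.1, 178.5 and 201.8 CPM in WT, with SA again above the others. It was 1.3-fold higher in SA (0.37 ± 0.07, adjusted p = 0.00415, edgeR) and differed from WT in SE by 0.01, a value whose sign turned with library totals as the scaling (-0.008). In SE vs SA, Clec4a1 was 1.36-fold lower (adjusted p = 0.00014, edgeR) and Clec4a3 1.29-fold lower (adjusted p = 0.00314, edgeR).

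Clec12a, whose inhibitory product MICL recognises crystals of uric acid, had 268.8, 261.8 and 244.6 CPM in SA, 191, 185.2 and 169.6 CPM in SE and 222.3, 198.8 and 207.3 CPM in WT. The 3 genotypes did not overlap, with SA high, WT in between and SE low, the order also seen for Clec4e. Clec12a was 1.23-fold higher in SA than in WT (0.30 ± 0.06, adjusted p = 0.00966, edgeR) and 1.42-fold lower in SE than in SA (-0.51 ± 0.06, adjusted p = 6.44e-05, edgeR). Its difference of -0.20 ± 0.06 between SE and WT was not called (adjusted p = 0.0804, edgeR), but was with DESeq2 (adjusted p = 0.0468) and without WT2 (adjusted p = 0.0301, edgeR). The call in SA vs WT ended without WT3 (adjusted p = 0.0626, edgeR) or SA1 (adjusted p = 0.0789, edgeR).

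Clec4a2 encodes DCIR itself, and was called in none of the comparisons. It had 224.5, 233.8 and 218.1 CPM in SA, 214.7, 218.5 and 201.9 CPM in SE and 204.7, 186.3 and 210.9 CPM in WT. SA lay above WT in each library, with a difference of 0.17 ± 0.06 on the log2 scale and a 95% interval of 0.04 to 0.30 (adjusted p = 0.177, edgeR). In SE the difference was 0.08, with an interval of -0.05 to 0.21. Of its 50-base stretches 6.83% occur in other genes.

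**Figure D4:**
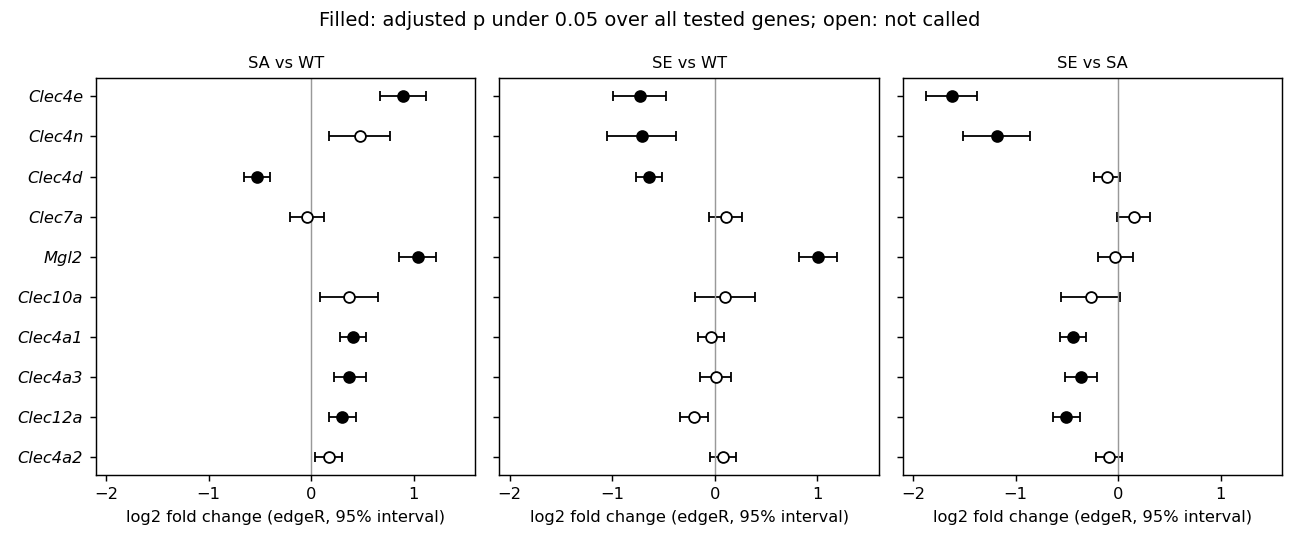
Log2 fold change of each receptor gene (points) with its 95% interval (bars) in SA vs WT, SE vs WT and SE vs SA, from the edgeR fit over all 9 libraries. Filled points passed an adjusted p under 0.05. Clec4e runs from 0.89 in SA vs WT to -1.62 in SE vs SA, and Mgl2 lies at 1.04 and 1.01 in both mutants against WT.

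Levels of different genes were set side by side as CPM per kb of annotated exon. In WT the order was Clec7a (473 ± 41.8), Clec4a3 (147 ± 10.9), Clec4a1 (117 ± 2.88), Clec4d (106 ± 7.77), Clec4a2 (68.6 ± 4.37), Clec12a (37.9 ± 2.16), Mgl2 (6.38 ± 0.144), Clec4n (4.57 ± 0.986), Clec10a (2.93 ± 0.236) and Clec4e (1.94 ± 0.0197 CPM per kb, SD, n = 3). Neighbours in this order did not overlap between libraries, and the first stood 244-fold above the last. With the longest transcript as the length, 8 of 10 kept their place, and Clec4d (128 ± 9.39) and Clec4a1 (117 ± 2.88) changed places with overlapping libraries. Between genotypes the order itself moved little: Clec4d stood above Clec4a2 in WT and below it in both mutants, and Clec4n ranked below Clec10a in SE. With the longest transcript as the length, the libraries of Clec4d and Clec4a2 overlapped in both mutants.

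**Figure D5:**
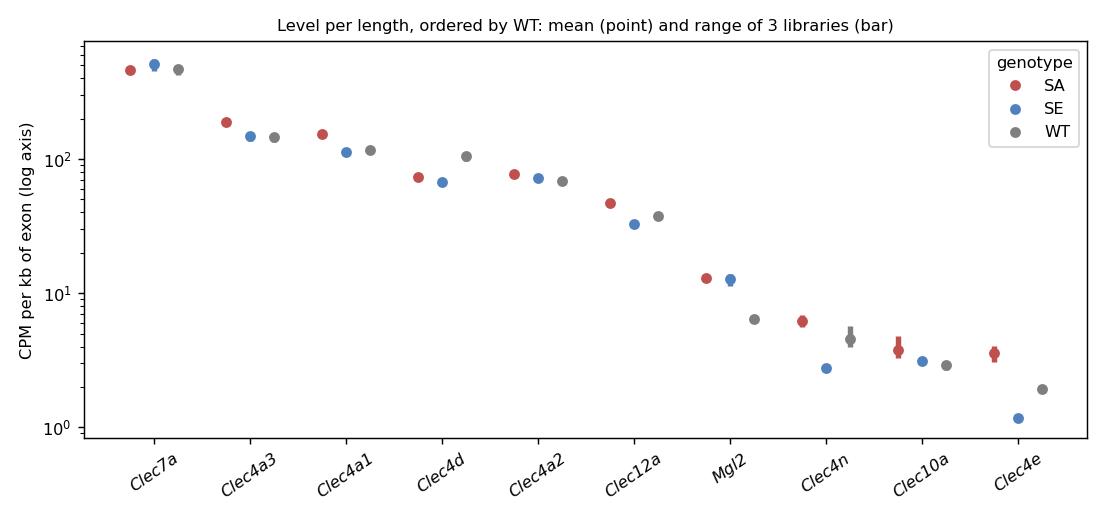
Level of each receptor gene in CPM per kb of exon (log axis), ordered by WT from left to right. Points are means and bars the range of 3 libraries, with SA, SE and WT side by side. Levels in WT run from 473 for Clec7a to 1.94 for Clec4e.

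For the 7 genes called in any comparison, the most similar of 9232 candidates (protein-coding genes of at least 5 CPM) were found by the root mean square difference between log2 CPM values over the 9 libraries, each centred on the gene's own mean. Fcna, which encodes ficolin-A, was nearest to Clec4d (0.056, against an SD of 0.284 for Clec4d itself) and averaged 15.6 CPM in SA, 14.8 CPM in SE and 22.1 CPM in WT. Thbs1, which encodes thrombospondin, was nearest to Clec4e (0.149, against an SD of 0.662), at 20.5, 7.16 and 11.7 CPM in SA, SE and WT. Lifr, a cytokine receptor gene, was nearest to Clec4n (0.130), Klf7 to Clec4a1 (0.042), and Fcgr1, an Fc receptor gene, to Clec12a (0.057). For Mgl2 the nearest gene, Lrrc32, was farther away (0.211, against an SD of 0.483). Sqle, which encodes squalene epoxidase, was close to both Clec4a1 (0.048) and Clec4a3 (0.054). These values describe likeness over 9 libraries that share their 3 genotypes.

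Of 43 other C-type lectin genes, 17 were abundant enough to test and 11 had 0 counts in all libraries. In SA 3 rose and 1 fell (median -0.02), in SE 1 rose and 5 fell relative to WT (median -0.33), and 0 rose and 5 fell in SE vs SA (median -0.26, likewise 0 higher before adjustment and with DESeq2). Mrc1, the mannose receptor gene and a marker of alternative activation, rose in both mutants: it averaged 1194 ± 44.9 CPM in SA, 1255 ± 49.9 CPM in SE and 1017 ± 45.4 CPM in WT, 1.17-fold higher in SA (adjusted p = 0.0295, edgeR) and 1.23-fold higher in SE (adjusted p = 0.00507, edgeR). Colec12, which encodes a scavenger collectin, fell in both, to 50.6 ± 1.2 CPM in SA and 35.7 ± 0.66 CPM in SE, against 61.0 ± 2.42 CPM in WT (edgeR, adjusted p = 0.0176 in SA and 1.45e-06 in SE). Cd72, an inhibitory receptor, rose 1.36-fold in SA (adjusted p = 0.000203, edgeR) and Clec5a, which signals through DAP12, rose 1.3-fold (adjusted p = 0.00505, edgeR). Cd207, known as langerin, and Cd93 fell in SE, 1.68-fold and 1.36-fold (edgeR, adjusted p = 0.00624 for Cd207 and 0.000109 for Cd93), and were also called lower in SE vs SA.

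Clec4e, Clec4d and Clec4n signal through the products of Fcer1g, Syk and Card9, and Clec7a through those of Syk and Card9. Fcer1g, Syk and Card9 were called in no comparison. Fcer1g averaged 664 ± 9.65 CPM in SA, 655 ± 24.6 CPM in SE and 655 ± 20.9 CPM in WT, Syk 481 ± 4.17, 468 ± 30.0 and 487 ± 23.0 CPM, and Card9 69.5 ± 3.48, 72.5 ± 7.22 and 68.5 ± 4.24 CPM in the same order. Of 30 adaptor and signalling genes, all tested, 0 were called in SA vs WT (median 0.01). Before adjustment, 8 had a p under 0.05, all higher in SA, and DESeq2 called 1 higher. In SE vs WT 3 rose and 3 fell (median -0.07), and in SE vs SA 2 rose and 9 fell (median -0.06). The 3 that rose in SE vs WT were Src (log2 change 0.43, adjusted p = 0.00942, edgeR), Cblb and Prkcd (1.2-fold, adjusted p = 0.0202, edgeR). The 3 that fell were Rasgrp3 (1.38-fold, adjusted p = 0.000843, edgeR), Nfatc2 (1.31-fold, adjusted p = 0.00798, edgeR) and Fgr. Cblb, a ubiquitin ligase that restrains Dectin signalling, averaged 185 ± 9.73 CPM in SA, 242 ± 3.36 CPM in SE and 190 ± 3.92 CPM in WT, and rose 1.27-fold in SE (adjusted p = 0.0012, edgeR). Fgr, a Src family kinase gene, averaged 49.4 ± 3.53, 31.7 ± 3.23 and 41.0 ± 4.05 CPM in SA, SE and WT. It was 1.29-fold lower in SE than in WT (adjusted p = 0.0251, edgeR) and 1.56-fold lower in SE than in SA (adjusted p = 0.000172, edgeR).

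Markers of other cells moved in part with the genotypes, and their part in the receptor results was not tested. Summed dendritic cell markers, 6 of 12 tested, stood at 46.2 to 50.3 CPM in SA, 33.6 to 35.1 CPM in SE and 37.2 to 43.1 CPM in WT. This is the order of Clec4e and Clec12a. Most of the sum came from Ccl22 (27.5 to 30.2 CPM in SA, 23.04 to 24.1 CPM in SE and 24.2 to 28.2 CPM in WT) and Cd24a (14.3 to 16.2, 7.54 to 8.58 and 8.63 to 10.9 CPM in the same order). Flt3 and Xcr1, genes that define dendritic cells, were too low to test. Flt3 averaged 0.149, 0.0513 and 0.0865 CPM in SA, SE and WT, and Xcr1 0.0488, 0.160 and 0.121 CPM. Zbtb46, another such gene, was tested and not called, at 1.12, 0.830 and 1.06 CPM in the same order. Ccr7 averaged 1.04, 0.180 and 0.403 CPM, with 1 to 5 counts per library in SE. It passed the filter on low counts only through SA (14 to 27 counts per library, against 8 to 9 in WT). Of that list, Cd24a was called in SA vs WT (1.53-fold higher, adjusted p = 0.00186, edgeR), 0 were called in SE vs WT (2 lower at an unadjusted p under 0.05), and Ccr7, Cd24a and Ccl22 were called lower in SE vs SA. Summed monocyte markers, 3 of 8 tested, stood at 25.4 to 28.0 CPM in SA, 15.9 to 20.3 CPM in SE and 24.9 to 30.3 CPM in WT, and in SE vs WT both Nr4a1 (1.65-fold, adjusted p = 0.00705, edgeR) and Ccr2 (1.52-fold, adjusted p = 0.00951, edgeR) were lower. The 12 mesothelial cell and fibroblast markers, 4 of them tested, summed to 41.6 to 47.0 CPM in SA. Their sum was 7.45 to 11.5 CPM in SE and 3.24 to 4.65 CPM in WT. The tested genes, Col1a1, Sparc, Col3a1 and Col1a2, were all called higher in SA, and Col1a1 and Sparc also in SE. Col3a1 passed the filter on low counts only through SA (31 to 54 counts per library, against 2 to 6 in WT). Among fibroblast genes too low to test, Dcn had 5 to 10 counts in SA, 0 to 2 in SE and 0 or 1 in WT. Pdgfra had 4 to 6, 0 or 1 and 0 or 1 in the same order, and Lum at most 1 in any library. The mesothelial genes Msln, Upk1b, Wt1 and Krt19 had 0 counts in all libraries. Of the 8 macrophage markers 1 was higher and 0 were lower in SA vs WT (median -0.09), and 0 were higher and 3 lower in SE vs WT (median -0.21): Cd14, Mertk and Fcgr1. Cd14, the 1 called in SA, averaged 100.3 ± 6.4 CPM in SA, 56.8 ± 2.66 CPM in SE and 80.2 ± 2.61 CPM in WT, higher in SA (log2 change 0.32, adjusted p = 0.00601, edgeR) and lower in SE (-0.50, adjusted p = 0.000219, edgeR). Neutrophil markers summed to 200 to 229.2 CPM in SA, 232.7 to 255.8 CPM in SE and 225.1 to 246.7 CPM in WT. Nearly all of the sum came from Csf3r (177 ± 12.9, 197 ± 10.7 and 178 ± 13.1 CPM in SA, SE and WT) and Mmp8 (36.3 ± 1.92, 43.15 ± 1.07 and 56.4 ± 3.99 CPM). The next most abundant, Cxcr2, averaged 1.62, 1.20 and 0.884 CPM in the same order. Of 4 tested, 1 was called lower in each mutant, Mmp8, and Retnlg and Ly6g were at 0 in all libraries. Eosinophil, resident macrophage, B cell, T and NK cell, and mast cell markers each summed, list by list, to at most 28.5 CPM in any library. Of these lists, the eosinophil marker Ccr3 was called lower in SE vs SA (1.74-fold, adjusted p = 0.00596, edgeR), while Siglecf was not called. The B cell marker Ighm was also lower there (3.09-fold, adjusted p = 0.0254, edgeR). Ighm had 3 to 6 counts per library in SE and passed the filter on low counts only through SA (12 to 16 counts).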

How the data were processed

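Raw read counts per Ensembl gene were deposited by the authors as 1 table of 9 libraries. Reads were processed with HISAT2 2.1.0 and featureCounts against mm10, per the submitters' processing notes; the annotation release, strand setting and treatment of reads with several matches are not stated there. Of 55401 IDs, 55141 matched GENCODE M21 (GRCm38), which gave symbols, positions and exon lengths, and 260 did not. Genotypes came from the labels. A single edgeR 4.0.16 model in R 4.3.3 covered the 9 libraries (filterByExpr with minimum count 10 and total 15, TMM, robust quasi-likelihood fit on genotype, 6 residual degrees of freedom, 2-sided), which tested 13501 genes at a biological coefficient of variation of 6.75%. DESeq2 1.42.0 was an alternative. Standard errors were taken from the F statistic, and intervals are 95%. Ratios of neighbouring genes within a library were compared by an exact permutation test over libraries, a comparison added after the data were seen. At these totals 3 counts correspond to 0.12 to 0.176 CPM, a limit that covers counting error only. Replicate numbers did not pair the libraries (correlations of deviations -0.195 to 0.105 over 9 same-numbered pairs). Larger correlations joined libraries of different number: 0.27 for SE3 with WT2 and -0.261 for SE3 with WT1. The 10 genes and all lists were chosen with earlier results of these data known. The rule for named genes took all 10 receptor genes and, for those called, the 2 nearest genes by pattern. From each list it allowed, per comparison, the most changed called genes, up to 3 in each direction, and the 3 most abundant genes of a marker list. Not every gene it allowed is named. Fcer1g, Syk, Card9, Clec4b1, Clec4a4, Clec4b2, Flt3, Xcr1, Zbtb46, Dcn, Pdgfra, Lum and markers at 0 were named outside it, for their role or position. Some results for single genes are not reported here.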

Additional observations from a re-analysis of the deposited data

How the results depend on the processing

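Each of the 30 changes (10 receptor genes in 3 comparisons) was recomputed under 18 alternatives, 540 values in all: 522 kept direction and side of the threshold, 3 lost their call, 7 gained one and 8 changed sign. Sign changes touched only uncalled differences near 0: Clec7a in SA vs WT (0.007 without WT1 and SE2 together, -0.115 to 0.007 when leaving out 1 library), Clec4a3 in SE vs WT (-0.008 with library totals, -0.050 to 0.067 when leaving out 1 library), and Mgl2 in SE vs SA (0.047 without WT2 and SE3 together, -0.097 to 0.048 when leaving out 1 library). The calls lost were those of Clec12a and Clec4n given above. Counts of called receptor genes stayed at 5 to 7 in SA vs WT, 3 to 5 in SE vs WT and 5 or 6 in SE vs SA. With the replicate block they were 6, 4 and 5, as without it, and the pairing by number had no support in the labels. The count over all genes, 549 in SA vs WT, 680 in SE vs WT and 1376 in SE vs SA, was 903 in SA vs WT and 1215 in SE vs WT without WT2 and SE3, 372 in SE vs WT without WT1 and SE2, and 438 in SE vs WT with only those genotypes fitted. Leaving out 1 library gave 297 to 652 in SA vs WT, 292 to 1097 in SE vs WT and 781 to 1762 in SE vs SA. The cause was not tested. With the longest transcript as the length, 8 of 10 genes kept their place in the order of levels.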

Other observations

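Genes that C-type lectin receptor signalling is known to induce were read beside the receptors. Of 23 such genes 13 were tested: 4 rose and 0 fell in SA vs WT (before adjustment, 7 higher and 1 lower had a p under 0.05, and DESeq2 called 3 higher and 0 lower), 1 rose and 1 fell in SE vs WT, and 2 rose and 4 fell in SE vs SA. Their median log2 changes were 0.33, 0.14 and -0.23, and 4.07%, 5.04% and 10.2% of all tested genes were called in these comparisons. Of the 4 that rose in SA, Il1b, an inflammatory cytokine gene at a low level, changed most. It had 1.54, 1.27 and 1.23 CPM in SA, 0.147, 0.291 and 0.157 CPM in SE and 0.559, 0.881 and 0.372 CPM in WT. It passed the filter on low counts only through SA, with 24 to 35 counts per library there, against 8 to 15 in WT. Il1b was therefore tested because of the group in which it was high. It was 2.3-fold higher in SA than in WT (adjusted p = 0.045, edgeR) and 6.79-fold lower in SE than in SA (adjusted p = 0.000285, edgeR). In SE it had only 3 to 5 counts per library, at or near the limit of 3 counts, so the size of the latter fold is uncertain. Ccl2, a monocyte chemokine gene, averaged 3.01 ± 0.692 CPM in SA, 2.56 ± 0.479 CPM in SE and 1.59 ± 0.051 CPM in WT, 1.88-fold higher in SA vs WT (adjusted p = 0.0214, edgeR). Tnf, an inflammatory cytokine gene, averaged 16.6 ± 2.53 CPM in SA, 10.1 ± 0.292 CPM in SE and 10.4 ± 0.576 CPM in WT, and was 1.61-fold higher in SA than in WT (adjusted p = 0.00097, edgeR). Ccl3, a chemokine gene, was 1.46-fold higher in SA than in WT (adjusted p = 0.00048, edgeR). Nlrp3, an inflammasome sensor gene, averaged 22.0 ± 0.521 CPM in SA, 12.9 ± 1.73 CPM in SE and 17.8 ± 0.511 CPM in WT, and was 1.71-fold lower in SE than in SA (adjusted p = 5.14e-05, edgeR). Egr2, a transcription factor gene, rose 1.21-fold in SE (adjusted p = 0.00594, edgeR).

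Of 22 transcription factors of macrophage polarization, 1 rose and 3 fell in SA vs WT, 6 rose and 1 fell in SE vs WT, and 7 rose and 3 fell in SE vs SA. Their median log2 changes were 0.10, 0.06 and 0.05, and 4.07%, 5.04% and 10.2% of all tested genes were called in these comparisons. Maf averaged 98.6 ± 5.35 CPM in SA, 55.2 ± 3.52 CPM in SE and 81.03 ± 4.46 CPM in WT, and rose 1.22-fold in SA (adjusted p = 0.024, edgeR) and fell 1.47-fold in SE (adjusted p = 0.000132, edgeR). Cebpa fell in SA (log2 change -0.32, adjusted p = 0.0023, edgeR). Cebpb, which encodes a factor known to drive Mincle expression, averaged 81.02 ± 4.47 CPM in SA, 103.5 ± 4.97 CPM in SE and 100.4 ± 2.61 CPM in WT. It was 1.24-fold lower in SA than in WT (adjusted p = 0.00665, edgeR) and SE exceeded SA 1.28-fold (adjusted p = 0.0014, edgeR). The difference between SE and WT was not called (log2 change 0.04, adjusted p = 0.771, edgeR). Batf3 rose 1.58-fold in SE (adjusted p = 5.02e-05, edgeR), and in the same libraries Stat6 was 1.51-fold higher than in WT (adjusted p = 6.27e-06, edgeR).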
